A study of Mus musculus with 24 samples.

Results

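Messenger RNA levels of the mitochondrial ribosomal proteins were followed in mouse brown adipose tissue. The genes were taken by symbol, as every row whose name starts with Mrpl or Mrps and a number, and 4 rows named as pseudogenes were left out. This gave 78 of the 23017 genes measured, 49 named Mrpl and 29 named Mrps. The 24 libraries were made from polyA RNA of brown adipose tissue of C57BL/6J mice, which the series' title describes as obese and insulin resistant. They fell into 4 groups of 6. TZP mice received tirzepatide, a peptide that activates the receptors for GIP and for GLP-1. LAGIPRA mice received a long-acting compound that activates only the GIP receptor (GIPR). PairFedVehicle mice received vehicle and were pair-fed, that is, given a set amount of food, and Vehicle mice received vehicle. Doses, duration, age, sex, diet and the group that set the pair-fed amount are not stated in the labels.

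Mitochondria carry their own ribosome, which translates the few proteins encoded by mitochondrial DNA, all of them core subunits of the respiratory chain and of ATP synthase. Its RNAs come from mitochondrial DNA, but every one of its proteins is encoded in the nucleus, made in the cytosol and imported. Some of the proteins have counterparts in bacterial ribosomes and others occur only in mitochondria. Brown adipocytes are dense in mitochondria and burn fuel through the uncoupling protein Ucp1 to make heat.

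By role, 51 of the genes belong to the large subunit (every Mrpl gene with Mrps18a and Mrps30, which sit in the large subunit despite their names) and 26 to the small subunit. The remaining one, Mrps36, is now known as a component of the 2-oxoglutarate dehydrogenase complex. Values are the authors' deposited log2 values per gene, so a log2 fold change is a difference between group means, and a gene was called when limma's Benjamini-Hochberg adjusted p over all 17263 tested genes was under 0.05. All 78 genes passed the filter on low values, with mean log2 values from 5.37 to 10.98. The median standard error (SE) of a log2 fold change was 0.0785 for these genes and 0.15 for all tested genes. In whole tissue, fewer cells of a type and less RNA per cell cannot be told apart. All 10 brown adipocyte markers were present in every library, with Ucp1 between log2 values of 14.7 and 15.9.

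Some libraries stood apart from their groups. For each library, log2 values minus each gene's mean over the 24 libraries were fitted on log2 transcript length. The slope, and its sign, are therefore relative to the average library. It was negative in TZP 3 to 6 (-0.175 to -0.071 per doubling of length), against 0.0172 and 0.0214 in TZP 1 and 2. The range was -0.006 to 0.0519 in LAGIPRA, -0.0007 to 0.0303 in PairFedVehicle and 0.0194 to 0.0652 in Vehicle. Mitoribosomal transcripts were short, with a median length of 1224.5 bases against 2306 for all tested genes with a known length. The most frequent low value of each library was taken as the level of 1 read, which would be higher in shallower libraries. Read totals were not given, so neither point could be checked. This 1-read level was 0.96 to 1.53 in TZP, 1.12 to 1.68 in LAGIPRA, 1.02 to 1.26 in PairFedVehicle and 0.89 to 1.35 in Vehicle (log2 values). Skeletal muscle markers were close to absent in TZP 3, PairFedVehicle 5 and Vehicle 1, with mean log2 values of 1.31, 1.005 and 1.15, and averaged 4.43 to 10.4 in the other libraries. All 10 macrophage markers were present, and none was at 0 in any library. Their mean log2 value was 6.79 to 7.77 in TZP, 6.60 to 7.62 in LAGIPRA, 6.88 to 8.38 in PairFedVehicle and 7.04 to 8.25 in Vehicle. The mean of the 10 brown adipocyte markers was 11.98 ± 0.25 in TZP, 12.04 ± 0.06 in LAGIPRA, 11.95 ± 0.13 in PairFedVehicle and 11.70 ± 0.20 in Vehicle (log2 values, mean ± SD, n = 6 each), so it was higher in the pair-fed mice as well as under both drugs. The mean of 11 endothelial markers was 6.85 to 7.41 in TZP, below every other library, against 7.46 to 7.58 in LAGIPRA, 7.53 to 7.704 in PairFedVehicle and 7.455 to 7.73 in Vehicle. The mean of 5 erythroid markers was 10.3 to 11.9 in TZP, wholly below the 12.3 to 13.1 in LAGIPRA, with 10.9 to 13.5 in PairFedVehicle and 11.6 to 13.02 in Vehicle. The mean of 5 lymphocyte markers was 1.74 to 3.03 in TZP, 1.88 to 2.28 in LAGIPRA, 2.14 to 2.81 in PairFedVehicle and 2.23 to 3.80 in Vehicle. The part of the brown adipocyte, endothelial, erythroid and lymphocyte differences in the results was not tested, and that of the others only by the values given beside the counts.

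Averaged over the 78 genes, the log2 level was 8.08 ± 0.07 in TZP, 8.06 ± 0.10 in LAGIPRA, 7.82 ± 0.09 in PairFedVehicle and 7.80 ± 0.10 in Vehicle (mean ± SD, n = 6 each). The TZP libraries stood at 8.12, 8.10, 8.05, 8.19, 8.04 and 8.01, and the LAGIPRA libraries at 8.001, 7.92, 7.98, 8.18, 8.14 and 8.14. The PairFedVehicle libraries stood at 7.99, 7.76, 7.85, 7.76, 7.74 and 7.84, and the Vehicle libraries at 7.74, 7.76, 7.68, 7.89, 7.95 and 7.81. Every TZP library lay above every PairFedVehicle and Vehicle library. LAGIPRA 2 and LAGIPRA 3 lay among the highest libraries of the groups without drug, PairFedVehicle 1 and Vehicle 5, and the other LAGIPRA libraries lay above all of those. TZP 1 and 2, the TZP libraries without a negative length slope, were above every PairFedVehicle and Vehicle library too. The libraries with the highest averages, TZP 4 and LAGIPRA 4, had macrophage means of 6.99 and 6.60, and the library with the lowest, Vehicle 3, had a macrophage mean of 8.11. PairFedVehicle 1 and Vehicle 5, with macrophage means of 6.88 and 7.04, nevertheless averaged below every TZP library, and TZP macrophage means ran from 6.79 to 7.77.

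**Figure D1:**
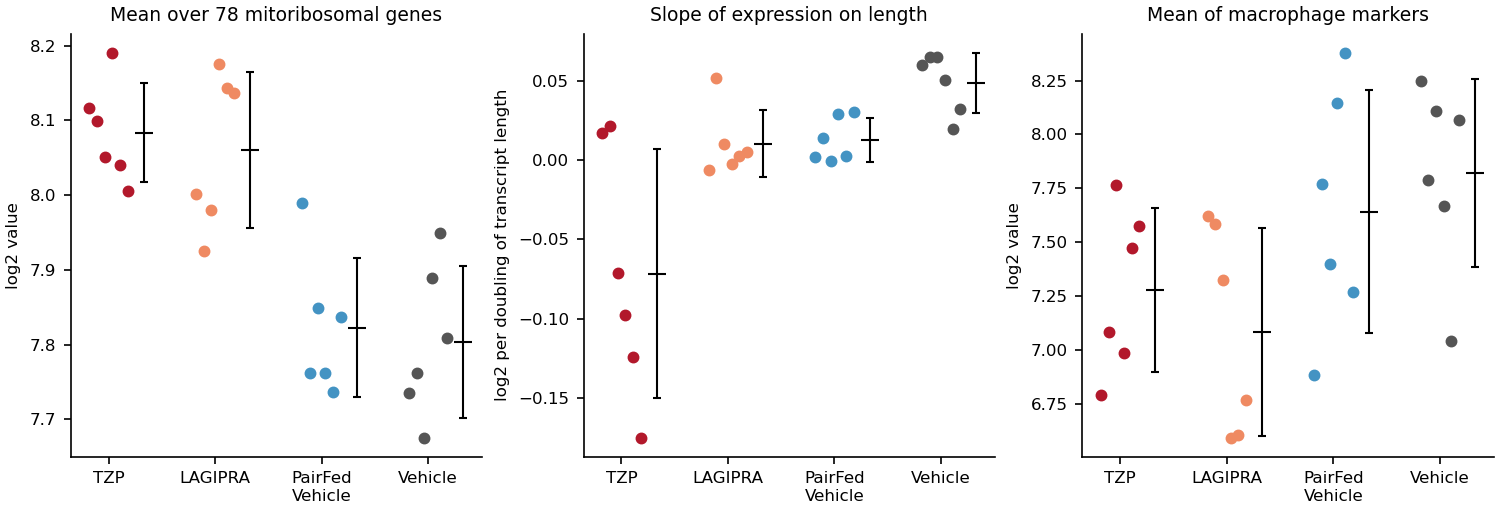
Each point is 1 library of the TZP, LAGIPRA, PairFedVehicle and Vehicle groups, with the group mean and SD beside it, for the mean log2 value over 78 mitoribosomal genes (left), the slope of log2 value on transcript length (middle) and the mean log2 value of 10 macrophage markers (right). For the slope, log2 values were taken minus each gene's mean over all libraries, so it is relative to the average library. The TZP points on the left all lie at or above 8.01, while the PairFedVehicle and Vehicle points lie at or below 7.99, and 4 TZP points in the middle panel lie below 0.

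In TZP against Vehicle, mitoribosomal genes were higher almost throughout the list. Of 78, 62 rose and 0 fell, in a comparison where 11.7% of all tested genes rose and 10.3% fell. The median log2 fold change of the list was 0.28, a 1.21-fold difference, against 0.04 for all tested genes, and 77 of the 78 values were above 0, against 54.8% of all tested genes. The 6 TZP values lay wholly above the 6 Vehicle values for 25 genes, a pattern that 3.39% of tested genes showed. Both subunits took part, with 41 of 51 large subunit genes (median 0.28) and 20 of 26 small subunit genes (median 0.31) higher. Genes with a bacterial counterpart rose in 37 of 46 cases and genes found only in mitochondria in 24 of 31. Without TZP 3 to 6, 17 genes were higher and the median was 0.31, in a fit where 3.15% of all tested genes rose. With the length slope added to the fit 3 genes were higher (median 0.27), where 0.765% of all tested genes rose. With the macrophage mean as a covariate 32 were higher (median 0.18), where 6.52% of all tested genes rose.

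In LAGIPRA against Vehicle the picture was close to that for TZP. Of 78 genes, 50 rose and 0 fell, where 8.7% of all tested genes rose and 5.03% fell. The median log2 fold change was 0.26 (1.20-fold), against 0.03 for all tested genes, and 76 values were above 0, against 53.9% of all tested genes. For 16 genes every LAGIPRA value lay above every Vehicle value, as for 3.16% of tested genes. The large subunit gave 32 of 51 genes higher (median 0.25) and the small subunit 17 of 26 (median 0.27). The count fell to 33 without Vehicle 1, 27 without Vehicle 3 and 29 without either LAGIPRA 4 or LAGIPRA 5. Of all tested genes 4.96%, 4.2%, 3.93% and 3.98% rose in these fits, in that order. The medians of the list over all single left-out libraries lay between 0.24 and 0.30. With the 1-read level or the macrophage mean as a covariate, limma called 0 of the 78 genes, with medians of 0.16 and 0.13. Of all tested genes 0.261% and 0.0985% were called. In each of these fits 36 of the 78 had an unadjusted p under 0.05, and the share of all tested genes that did was not counted. In the fit as reported, 63 of the 78 and 5436 of the 17263 tested genes had an unadjusted p under 0.05.

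Under pair feeding without drug the list stayed close to all tested genes. In PairFedVehicle against Vehicle 0 genes rose and 1 fell, the small subunit gene Mrps6, where 4.96% of all tested genes rose and 3.66% fell. The median log2 fold change was 0.04, against 0.02 for all tested genes, with 48 of 78 values above 0, against 53.3% of all tested genes. Every PairFedVehicle value of Mrps6 lay below every Vehicle value, as for 2.35% of tested genes. An unadjusted p under 0.05 was reached by 15 of the 78 genes and by 3977 of the 17263 tested genes. The number called was 2 without Vehicle 2, LAGIPRA 3, TZP 6 or PairFedVehicle 1, 4 or 6, 3 without Vehicle 4, 4 without PairFedVehicle 5 and 5 without Vehicle 5. Mrps6 was lower in each of these fits, and they called 6.08% to 9.38% of all tested genes.

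Set against the pair-fed mice, the list was again higher under both drugs. In TZP against PairFedVehicle 46 of 78 genes rose and 0 fell, where 8.39% of all tested genes rose and 8.02% fell, with a median of 0.26 (1.20-fold) against -0.0024 for all tested genes. All 78 values were above 0, against 49.8% of all tested genes, and the groups did not overlap for 23 genes, against 3.17% of tested genes. In LAGIPRA against PairFedVehicle 29 rose and 0 fell, where 7.3% of all tested genes rose and 4.55% fell, with a median of 0.22 (1.16-fold) against -0.01. Here 76 values were above 0, against 48.2% of all tested genes, and the groups did not overlap for 15 genes, against 3.7% of tested genes. Without TZP 3 to 6, 19 genes rose in TZP against PairFedVehicle (median 0.29), and 18 did once the length slope was added to the fit (median 0.25). Of all tested genes 4.06% and 3.75% rose in these fits. Without PairFedVehicle 1, the pair-fed library with the highest average, 47 genes rose in LAGIPRA against PairFedVehicle, and 16 did with the macrophage mean as a covariate. Here 8.7% and 4.27% of all tested genes rose.

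In TZP against LAGIPRA, limma called 0 of the 78 genes in either direction, where 0.0521% of all tested genes rose and 0.348% fell. The log2 fold changes ran from -0.19 to 0.19 with a median of 0.02, and 50 of 78 were above 0, against 52.4% of all tested genes. Only 1 gene of the list, Mrpl52, had an unadjusted p under 0.05, as did 2835 of the 17263 tested genes. The median SE of 0.0785 sets the size of difference that could be seen. The plot of log2 fold changes shows the 6 comparisons side by side, and the map of library values shows the same genes library by library.

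**Figure D2:**
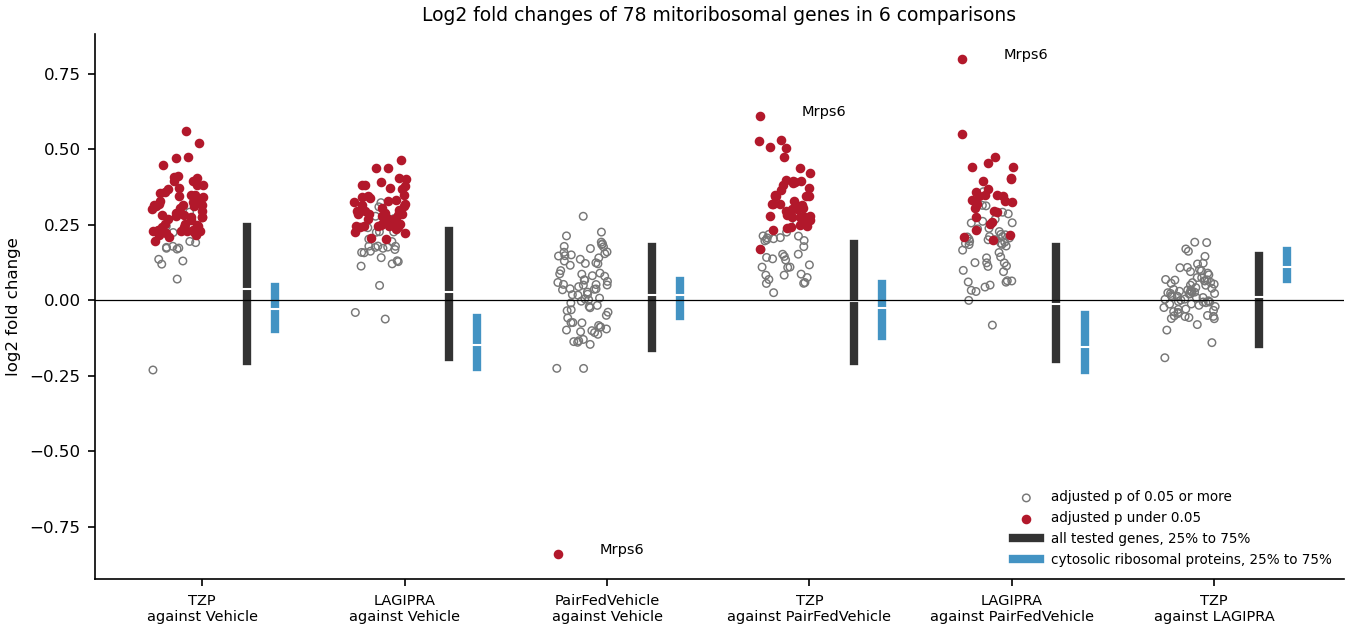
Each circle is the log2 fold change of 1 of 78 mitoribosomal genes in 1 of 6 comparisons (x axis), filled where limma's adjusted p was under 0.05. The bars beside them span the 25% to 75% quantiles of all tested genes and of the cytosolic ribosomal proteins with the median in white, and the circles lie mostly above both bars in the 4 comparisons of a drug with a group without drug.

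**Figure D3:**
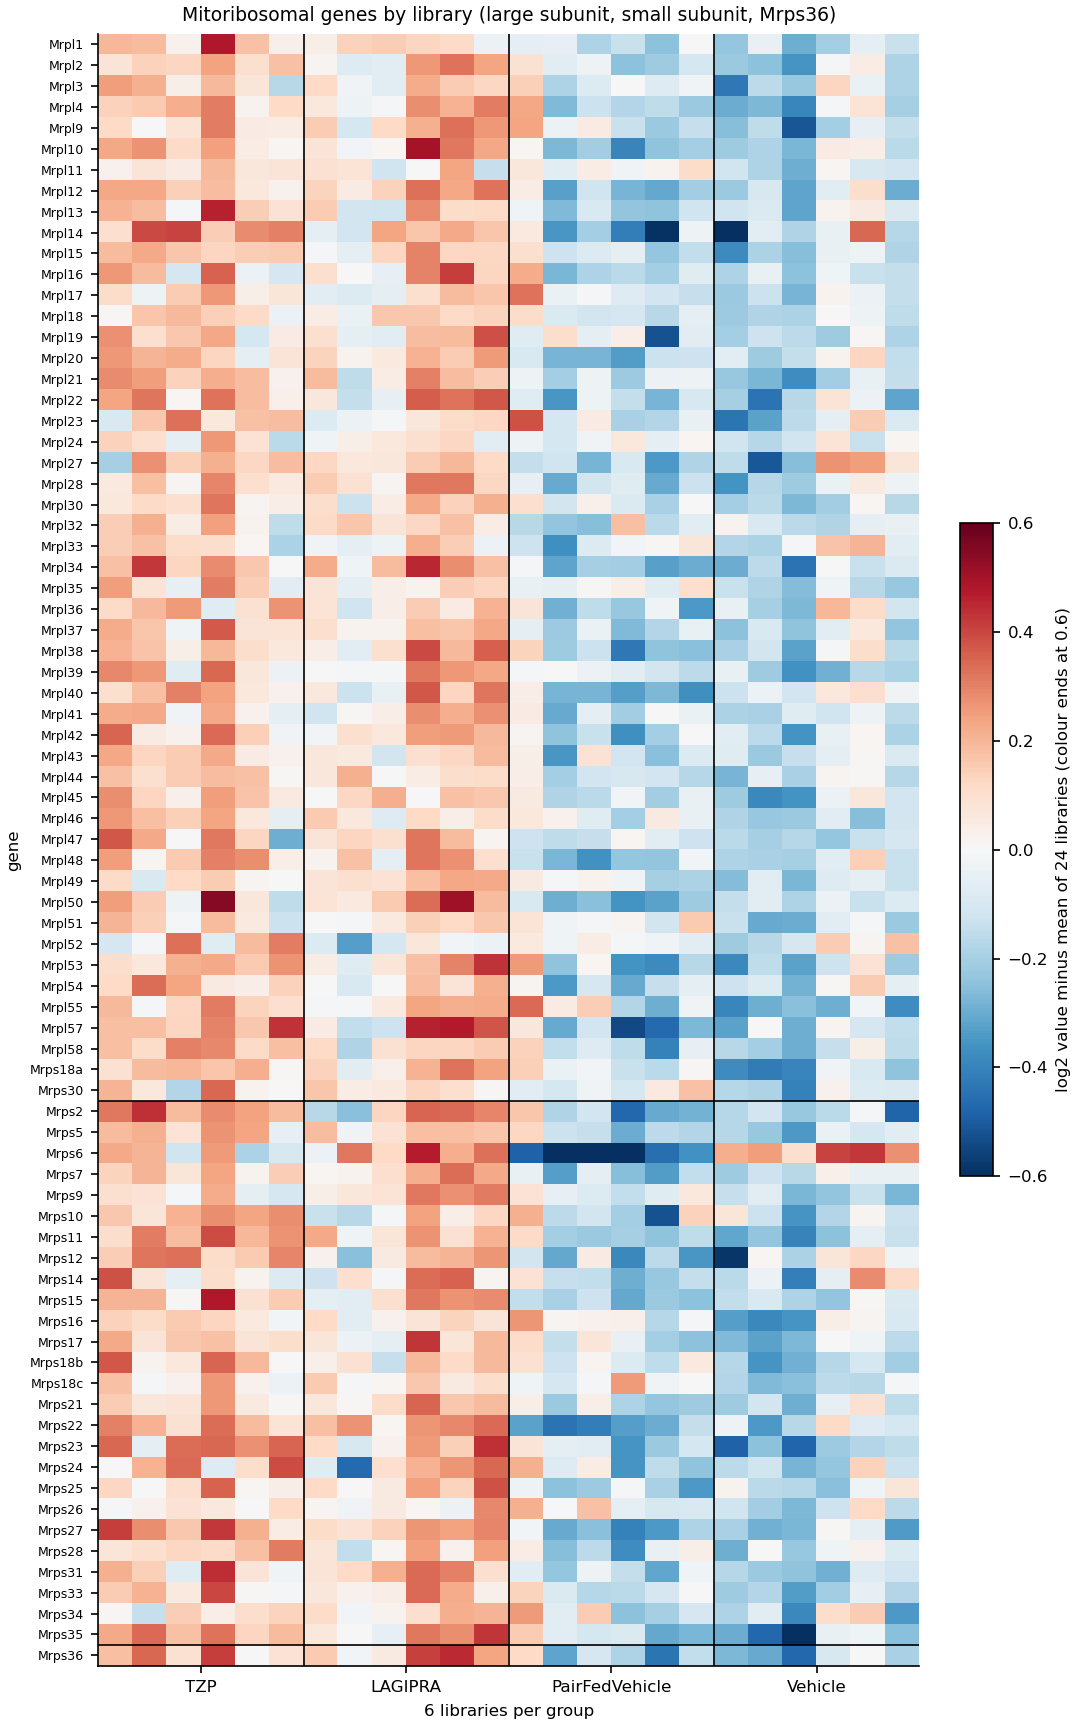
Colour gives the log2 value of each mitoribosomal gene (rows, large subunit, small subunit and Mrps36) in each of 24 libraries (columns) minus that gene's mean over the libraries, and the scale ends at 0.6. The TZP and LAGIPRA columns are mostly red and the PairFedVehicle and Vehicle columns mostly blue, with Mrps6 set apart by deep blue in PairFedVehicle and red in Vehicle.

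Counted over the 4 comparisons of a drug with a group without drug, 75 of 78 genes had values above 0 in all of them, against 26.7% of all tested genes. All 4 called 20 genes higher, where they did so for 1.66% of all tested genes. These were 11 of the large subunit (Mrpl10, Mrpl12, Mrpl20, Mrpl22, Mrpl28, Mrpl34, Mrpl37, Mrpl42, Mrpl44, Mrpl48 and Mrpl53), 8 of the small subunit (Mrps5, Mrps7, Mrps11, Mrps15, Mrps21, Mrps22, Mrps27 and Mrps31) and Mrps36. None of the 4 called 8 genes, Mrpl16, Mrpl24, Mrpl33, Mrpl52, Mrps14, Mrps24, Mrps26 and Mrps34, where 62.2% of all tested genes were called in none. Comparisons that use the same control libraries are not independent, and 2 pairs of comparisons share none. TZP against PairFedVehicle and LAGIPRA against Vehicle both called 32 genes higher, 69.6% and 64.0% of their lists, where both called 2.49% of all tested genes higher, and across the 78 genes their log2 fold changes had a Pearson r of 0.15 (0.29 without Mrps6). TZP against Vehicle and LAGIPRA against PairFedVehicle both called 23 genes higher, 37.1% and 79.3% of their lists, where both called 2.38% of all tested genes higher, with an r of -0.04 (0.30 without Mrps6). These r values describe genes that share libraries, and genes are not independent replicates.

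The start sites of 4 of these genes are shown because their transcripts carried the results that follow: Mrps27, called in all 4 drug comparisons with no overlap between groups, Mrps22, which had the smallest adjusted p of the list in TZP against PairFedVehicle, Mrpl12, the factor tied to mitochondrial transcription, and Mrps6, which behaved unlike the rest. Sequences are RefSeq's, from assembly GRCm38.p6, from 250 bases before to 50 bases after the start of the gene, read 5′ to 3′ on the gene's strand. They lie at chr13:99344536-99344835 on the plus strand (Mrps27), chr9:98601630-98601929 on the minus strand (Mrps22), chr11:120484387-120484686 on the plus strand (Mrpl12) and chr16:92058086-92058385 on the plus strand (Mrps6). Capitals mark matches on either strand to 4 short motifs of factors known to control nuclear genes for mitochondria, the NRF1 core (GCGCA and GCGC with any base between), the ETS core CCGGAAG bound by the GABP complex, the YY1 core AAGATGGC and the estrogen-related receptor site AAGGTCA.
Mrps27: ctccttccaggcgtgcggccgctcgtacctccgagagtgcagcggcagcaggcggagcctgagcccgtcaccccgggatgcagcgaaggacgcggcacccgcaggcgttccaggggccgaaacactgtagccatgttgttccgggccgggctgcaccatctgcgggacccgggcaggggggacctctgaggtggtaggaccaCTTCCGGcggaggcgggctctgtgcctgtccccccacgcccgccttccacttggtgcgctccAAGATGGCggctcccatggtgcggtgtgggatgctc
Mrps22: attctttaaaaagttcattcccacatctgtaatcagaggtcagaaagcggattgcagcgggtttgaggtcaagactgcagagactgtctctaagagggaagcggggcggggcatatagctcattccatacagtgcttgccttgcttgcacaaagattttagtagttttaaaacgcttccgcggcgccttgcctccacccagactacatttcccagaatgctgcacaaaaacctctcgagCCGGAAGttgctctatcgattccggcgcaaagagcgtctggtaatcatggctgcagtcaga
Mrpl12: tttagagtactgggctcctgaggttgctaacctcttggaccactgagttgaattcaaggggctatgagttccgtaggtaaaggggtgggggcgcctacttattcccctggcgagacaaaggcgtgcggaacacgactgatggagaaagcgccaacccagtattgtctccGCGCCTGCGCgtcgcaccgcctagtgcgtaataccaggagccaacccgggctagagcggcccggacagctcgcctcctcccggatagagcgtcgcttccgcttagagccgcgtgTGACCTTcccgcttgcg
Mrps6: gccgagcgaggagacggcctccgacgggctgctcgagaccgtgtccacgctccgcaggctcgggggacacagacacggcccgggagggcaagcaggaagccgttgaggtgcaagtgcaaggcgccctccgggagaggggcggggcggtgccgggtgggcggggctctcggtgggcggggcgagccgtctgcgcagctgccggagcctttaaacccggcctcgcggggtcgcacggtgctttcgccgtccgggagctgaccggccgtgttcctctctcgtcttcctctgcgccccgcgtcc

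In these windows, with the first base of the gene as position 1 and no position 0, Mrps27 held an ETS core on the opposite strand at -48 and a YY1 core at 15. Mrps22 held an ETS core at -11. Mrpl12 held an NRF1 core at -81 and an estrogen-related receptor site at 34, both on the opposite strand. Mrps6 held none of the 4 motifs. Windows were found for 69 of the 78 genes, and Mrpl4, Mrpl13, Mrpl15, Mrpl19, Mrpl38, Mrpl54, Mrps28, Mrps34 and Mrps35 had none. The ETS core occurred in 26 of the 69 genes (37.7%), against 9.9% of 27025 genes with a window and 18.5% of 11417 tested genes with one. The YY1 core occurred in 12 (17.4%, against 3.2% and 4.9%), the NRF1 core in 13 (18.8%, against 5.2% and 10.4%) and the estrogen-related receptor site in 4 (5.8%, against 5.4% and 4.1%). At least 1 of the 4 was present in 44 genes (63.8%), against 21.1% of all and 32.7% of tested genes. The median log2 fold change in TZP against Vehicle was 0.29 with an ETS core and 0.28 without, and in LAGIPRA against Vehicle it was 0.25 with and 0.26 without. A match of letters is a description and not evidence of binding.

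Among the small subunit proteins found only in mitochondria, Mrps27, Mrps22, Mrps23, Mrps31 and Mrps35 rose under both drugs against Vehicle. Mrps27, a pentatricopeptide-repeat protein, had log2 values from 6.45 to 6.83 in TZP (median 6.66), 6.497 to 6.70 in LAGIPRA (median 6.60), 6.00 to 6.40 in PairFedVehicle (median 6.13) and 6.07 to 6.42 in Vehicle (median 6.18). Every TZP and LAGIPRA value lay above every PairFedVehicle and Vehicle value. Mrps27 rose by a log2 fold change of 0.45 (SE 0.080, adjusted p = 0.00108) in TZP and 0.38 (SE 0.080, adjusted p = 0.00735) in LAGIPRA, both against Vehicle. Against PairFedVehicle it rose by 0.51 in TZP (adjusted p = 0.000226) and 0.44 in LAGIPRA (adjusted p = 0.000801). Its exons share 171 bases on the opposite strand with 6430562O15Rik in GENCODE M21, and since strandedness was not given, reads from that stretch cannot be told apart.

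Mrps22, another mitochondria-specific protein, mutated in human mitochondrial translation disorders, separated both drug groups from the pair-fed mice. Its log2 values were 7.39 to 7.64 in TZP (median 7.50), 7.32 to 7.64 in LAGIPRA (median 7.57), 6.86 to 7.16 in PairFedVehicle (median 6.98) and 6.96 to 7.43 in Vehicle (median 7.21). Both drug groups cleared PairFedVehicle without overlap and overlapped with Vehicle. The log2 fold change against PairFedVehicle was 0.53 in TZP (SE 0.074, adjusted p = 6.8e-05) and 0.55 in LAGIPRA (SE 0.074, adjusted p = 3.1e-05). Against Vehicle it was 0.30 in TZP (adjusted p = 0.00676) and 0.33 in LAGIPRA (adjusted p = 0.0106), and in PairFedVehicle against Vehicle -0.23 (adjusted p = 0.0596).

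Mrps23 and Mrps35, both specific to mitochondria, had the largest log2 fold changes of the list in TZP against Vehicle. Mrps23 ran from 5.33 to 5.73 in TZP (median 5.72), 5.28 to 5.82 in LAGIPRA (median 5.51), 5.02 to 5.46 in PairFedVehicle (median 5.29) and 4.89 to 5.23 in Vehicle (median 5.15). Both drug groups lay above all Vehicle libraries, although TZP 2, at 5.33, lay far below the other TZP libraries. Mrps23 rose by 0.56 in TZP (SE 0.097, adjusted p = 0.000984) and 0.44 in LAGIPRA (SE 0.097, adjusted p = 0.00994) against Vehicle. Against PairFedVehicle it rose by 0.39 in TZP (adjusted p = 0.00876), and the value of 0.27 in LAGIPRA did not pass (adjusted p = 0.076). Mrps35 rose by 0.52 in TZP (adjusted p = 0.00198) and 0.46 in LAGIPRA (adjusted p = 0.0105) against Vehicle. Its call in TZP against PairFedVehicle (0.35, adjusted p = 0.026) was lost without TZP 4, PairFedVehicle 5 or PairFedVehicle 6.

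Mrps31, also specific to mitochondria, rose in all 4 drug comparisons, by 0.32 in TZP and 0.38 in LAGIPRA against Vehicle (adjusted p = 0.00729 and 0.00726) and by 0.27 in TZP and 0.33 in LAGIPRA against PairFedVehicle (adjusted p = 0.0227 and 0.00796), the TZP call against PairFedVehicle being lost without TZP 4, PairFedVehicle 2 or PairFedVehicle 5.

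Of 17 small subunit proteins with bacterial counterparts, 14 rose in TZP and 10 in LAGIPRA against Vehicle (medians 0.29 and 0.25), and 10 and 7 rose against PairFedVehicle (medians 0.28 and 0.26). Of all tested genes 11.7%, 8.7%, 8.39% and 7.3% rose in the same order of comparisons, with medians of 0.04, 0.03, -0.0024 and -0.01. Mrps11, the counterpart of bacterial S11, rose by 0.47 in TZP (SE 0.073, adjusted p = 0.000539, the smallest of the list) and 0.37 in LAGIPRA (adjusted p = 0.00584) against Vehicle, with no overlap in either, and by 0.39 and 0.29 against PairFedVehicle. Mrps15, which binds ribosomal RNA, rose by 0.40 in TZP and 0.35 in LAGIPRA against PairFedVehicle without overlap (adjusted p = 0.00156 and 0.0047). Mrps5 rose by 0.31 in TZP and 0.29 in LAGIPRA against Vehicle (adjusted p = 0.0045 and 0.0149). Mrps12, whose bacterial counterpart lies at the decoding site, rose by 0.44 in TZP against PairFedVehicle (adjusted p = 0.00726, no overlap), and its call against Vehicle (0.32, adjusted p = 0.0312) was lost without Vehicle 1, Vehicle 3, TZP 2, TZP 3 or TZP 6.

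The group of 3 proteins related to bacterial S18 (Mrps18a, Mrps18b and Mrps18c) rose together against Vehicle. The log2 fold changes in TZP were 0.40, 0.38 and 0.25 (adjusted p = 0.00149, 0.00197 and 0.0103), and in LAGIPRA 0.40, 0.30 and 0.25 (adjusted p = 0.00514, 0.0164 and 0.0171). In PairFedVehicle against Vehicle their values were 0.23, 0.18 and 0.19, with adjusted p = 0.0701, 0.142 and 0.0773, and none of the 3 was called in either drug against PairFedVehicle. Mrps24 was called nowhere, with 0.29 in TZP and 0.19 in LAGIPRA against Vehicle (SE 0.120, adjusted p = 0.0831 and 0.273). Mrps28 rose by 0.25 in TZP against Vehicle (adjusted p = 0.0285), a call lost without Vehicle 1, Vehicle 3, TZP 5 or TZP 6.

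Mrps6, the counterpart of bacterial S6, differed between the pair-fed mice and all other groups. Its log2 values were 10.35 to 10.79 in TZP (median 10.59), 10.50 to 11.01 in LAGIPRA (median 10.80), 9.76 to 10.17 in PairFedVehicle (median 9.98) and 10.63 to 10.96 in Vehicle (median 10.80). The PairFedVehicle libraries lay below all other libraries, and the remaining groups overlapped. Mrps6 fell by 0.84 in PairFedVehicle against Vehicle (SE 0.094, adjusted p = 5.65e-06). It rose by 0.61 in TZP (adjusted p = 0.000183) and 0.80 in LAGIPRA (adjusted p = 7.19e-06) against PairFedVehicle. Against Vehicle its values were -0.23 in TZP (adjusted p = 0.0801) and -0.04 in LAGIPRA (adjusted p = 0.802). With transcript length corrected, the TZP value was -0.38 (adjusted p = 0.0149).

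The values of Mrps6 are uncertain because its transcripts share 159 exon bases on the same strand with Slc5a3, the gene for a sodium-coupled myo-inositol transporter. Slc5a3 had log2 values of 11.18, 11.14, 10.64, 11.11, 10.69 and 10.73 in TZP and 11.04, 11.47, 11.20, 11.35, 11.11 and 11.13 in LAGIPRA. In PairFedVehicle they were 10.38, 10.39, 10.10, 10.31, 10.46 and 10.53, and in Vehicle 11.30, 11.49, 11.19, 11.35, 11.45 and 11.39. As for Mrps6, the pair-fed libraries lay below all others. Slc5a3 fell by 0.999 in PairFedVehicle against Vehicle (SE 0.099, adjusted p = 1.54e-06) and rose by 0.55 in TZP and 0.86 in LAGIPRA against PairFedVehicle (adjusted p = 0.00079 and 6.67e-06). Slc5a3 also fell in TZP against Vehicle, where Mrps6 was not called, by 0.45 without overlap (SE 0.099, adjusted p = 0.00379). That call was lost with transcript length corrected, with the length slope in the fit or without TZP 3 to 6. In LAGIPRA against Vehicle it had -0.14 (adjusted p = 0.331). Which of the 2 genes gave the shared reads was not tested.

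**Figure D4:**
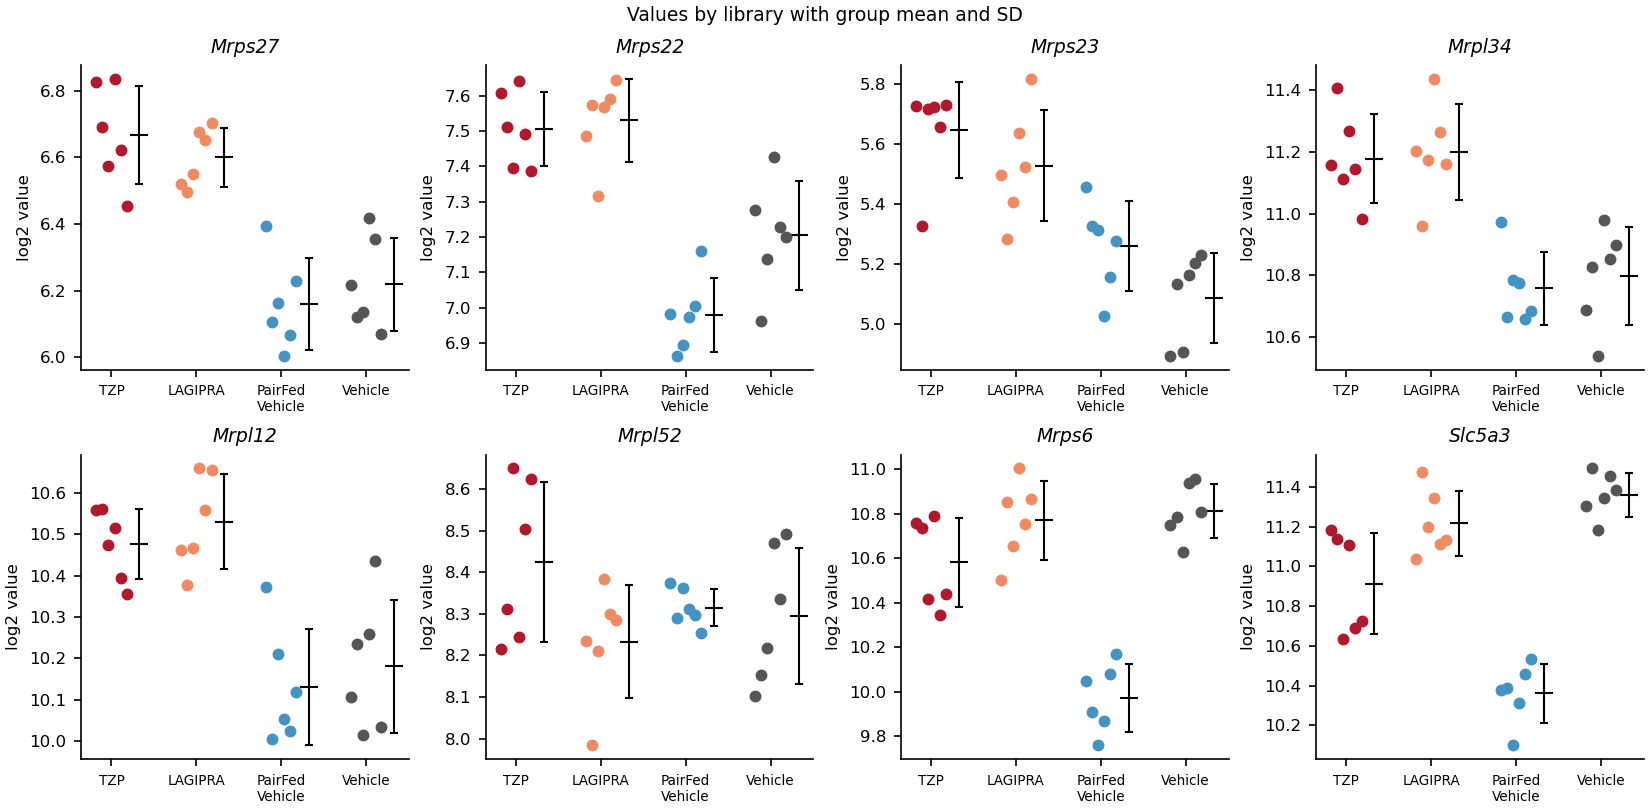
Each panel gives the log2 values of 1 gene by library for TZP, LAGIPRA, PairFedVehicle and Vehicle, with the group mean and SD beside the points and an axis of its own that does not start at 0. Mrps27 separates both drug groups from both groups without drug, Mrpl52 does not separate any group, and in Mrps6 and Slc5a3 the PairFedVehicle libraries lie below all others.

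In the large subunit, Mrpl12 is a stalk protein that also binds the mitochondrial RNA polymerase. Its log2 values ran from 10.36 to 10.56 in TZP (median 10.49), 10.38 to 10.66 in LAGIPRA (median 10.51), 10.004 to 10.37 in PairFedVehicle (median 10.09) and 10.02 to 10.44 in Vehicle (median 10.17). LAGIPRA cleared PairFedVehicle, and the other pairs of a drug and a group without drug overlapped by 1 or more libraries. Mrpl12 rose by 0.30 in TZP (SE 0.075, adjusted p = 0.00801) and 0.35 in LAGIPRA (adjusted p = 0.00794) against Vehicle, and by 0.35 in TZP (adjusted p = 0.00336) and 0.40 in LAGIPRA (adjusted p = 0.00109) against PairFedVehicle.

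Mrpl34, a small protein with a bacterial counterpart, had log2 values of 10.98 to 11.41 in TZP (median 11.15), 10.96 to 11.44 in LAGIPRA (median 11.19), 10.66 to 10.97 in PairFedVehicle (median 10.73) and 10.54 to 10.98 in Vehicle (median 10.84). TZP cleared both groups without drug, and LAGIPRA overlapped each of them by its lowest library. The log2 fold changes were 0.38 in TZP and 0.40 in LAGIPRA against Vehicle (SE 0.083, adjusted p = 0.00332 and 0.00716), and 0.42 and 0.44 against PairFedVehicle (adjusted p = 0.00168 and 0.00112).

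Mrpl50, found only in mitochondria, had log2 values of 9.94 to 10.64 in TZP (median 10.21), 10.15 to 10.60 in LAGIPRA (median 10.27), 9.74 to 10.004 in PairFedVehicle (median 9.82) and 9.91 to 10.06 in Vehicle (median 9.99). LAGIPRA cleared both groups without drug and TZP overlapped with both. Mrpl50 rose by 0.47 in LAGIPRA (SE 0.090, adjusted p = 0.00122) and 0.39 in TZP (adjusted p = 0.00501) against PairFedVehicle. Its value in TZP against Vehicle was 0.25 (adjusted p = 0.0512), and the LAGIPRA call against Vehicle (0.33, adjusted p = 0.0217) was lost without Vehicle 3, LAGIPRA 4 or LAGIPRA 5.

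Mrpl55, also specific to mitochondria, set Vehicle apart from both drugs and less clearly from pair feeding. It rose by 0.41 in TZP and 0.39 in LAGIPRA against Vehicle without overlap (SE 0.090, adjusted p = 0.00341 and 0.0113). In PairFedVehicle against Vehicle it had 0.28 (adjusted p = 0.056), the highest value of the list in that comparison, and against PairFedVehicle the drug groups had 0.13 and 0.11, neither of which passed.

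Mrpl14, to which the assembly factor Malsu1 binds in human cells, had its strongest difference in TZP against PairFedVehicle, at 0.53 without overlap (SE 0.125, adjusted p = 0.0062). Its call in TZP against Vehicle (0.39, adjusted p = 0.0269) was lost without Vehicle 1, Vehicle 3 or TZP 3, and LAGIPRA had 0.23 against Vehicle (adjusted p = 0.219). Mrpl20, an early-binding protein in bacterial assembly, rose by 0.34 in TZP and in LAGIPRA against PairFedVehicle, both without overlap (adjusted p = 0.00141 and 0.0014). Against Vehicle it had 0.21 in each drug (adjusted p = 0.0284 in TZP and 0.0415 in LAGIPRA). The TZP call was lost without any of 5 libraries (Vehicle 2, 3 or 6, TZP 1 or 3) and its value was -0.04 with transcript length corrected, and the LAGIPRA call was lost without any of 8 (Vehicle 1, 2, 3 or 6, LAGIPRA 1, 4, 5 or 6).

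Mrpl15 and Mrpl21, with bacterial counterparts, rose in TZP against both groups without drug, by 0.35 and 0.40 against Vehicle (adjusted p = 0.00155 and 0.00124) and by 0.26 and 0.27 against PairFedVehicle (adjusted p = 0.0105 and 0.0118), without overlap in all 4 cases. Mrpl58, a peptidyl-tRNA hydrolase built into the large subunit that frees stalled chains, rose by 0.35 in TZP against Vehicle (adjusted p = 0.00389, no overlap) and 0.31 against PairFedVehicle (adjusted p = 0.00862). In LAGIPRA Mrpl58 had 0.23 against Vehicle (adjusted p = 0.0538). Mrps30, which sits in the large subunit, had 0.23 in both drugs against Vehicle (adjusted p = 0.038 in TZP and 0.0455 in LAGIPRA), calls that were lost without single libraries. These were Vehicle 1, 2 or 3 or TZP 1, 4 or 5 for TZP, and Vehicle 1, 2, 3 or 6, LAGIPRA 1, 3, 4, 5 or 6, TZP 5 or PairFedVehicle 2 or 3 for LAGIPRA.

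Mrps36 shared the behaviour of the list although its protein belongs to another complex. It had log2 values of 7.31 to 7.73 in TZP (median 7.45), 7.30 to 7.76 in LAGIPRA (median 7.51), 6.87 to 7.43 in PairFedVehicle (median 7.14) and 6.84 to 7.31 in Vehicle (median 7.08). Drug and drug-free groups overlapped at their edges. It rose by 0.41 in TZP and 0.44 in LAGIPRA against Vehicle (SE 0.101, adjusted p = 0.00727 and 0.0113) and by 0.36 and 0.39 against PairFedVehicle (adjusted p = 0.0165 and 0.0128). Rows for Mrps36 pseudogenes stand in the table, as do rows for pseudogenes of Mrpl23 and Mrpl48, and how reads were split between them was not given.

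Of the 8 genes called in none of the 4 drug comparisons, Mrpl52 and Mrpl33 had the lowest log2 fold changes in LAGIPRA against Vehicle. Mrpl52, with the shortest transcript of the list at 440.5 bases, had log2 values of 8.22 to 8.65 in TZP (median 8.41), 7.98 to 8.38 in LAGIPRA (median 8.26), 8.25 to 8.37 in PairFedVehicle (median 8.31) and 8.10 to 8.49 in Vehicle (median 8.28). All groups overlapped. Its difference of 0.19 in TZP against LAGIPRA had an adjusted p of 0.256, and in LAGIPRA it had -0.06 against Vehicle (adjusted p = 0.645). Mrpl33, with a transcript of 478 bases, had 0.07 in TZP and 0.05 in LAGIPRA against Vehicle (adjusted p = 0.59 and 0.727).

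Across the 24 libraries each gene was set against the mean of the other mitoribosomal genes, as a description with no test, since the genes share libraries and depth. Pearson r had a median of 0.83, with 76 genes above 0.5, from 0.21 for Mrpl52 to 0.96 for Mrps36. Taken within groups, after each group's mean was removed, the median was 0.70, with 61 genes above 0.5, from 0.08 for Mrpl32 to 0.92 for Mrps36. Mrps6 had an r of 0.38 over all libraries and 0.56 within groups.

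Of the 78 genes, 59 share no exon bases in GENCODE M21 with another gene in the table. Among these, 49 rose in TZP and 39 in LAGIPRA against Vehicle, where 11.7% and 8.7% of all tested genes rose, and 34 and 22 rose against PairFedVehicle, where 8.39% and 7.3% did. The other 19 include Mrps25, which shares 3533 bases on the opposite strand with Nr2c2, Mrpl43, which shares 278 with Twnk, and Mrpl36, which shares 30 with the complex I subunit gene Ndufs6.

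Proteins that work with the mitochondrial ribosome were taken from lists of genes by role. Of 5 further ribosomal proteins with other names (Dap3, Ptcd3, Chchd1, Aurkaip1 and Gadd45gip1), 4 rose in TZP and 4 in LAGIPRA against Vehicle, with medians of 0.23 and 0.27. In these comparisons 11.7% and 8.7% of all tested genes rose. Dap3, a GTP-binding protein of the small subunit, rose by 0.32 in TZP against Vehicle (adjusted p = 0.00643) and 0.31 against PairFedVehicle (adjusted p = 0.00763), without overlap in either. Ptcd3, a pentatricopeptide-repeat protein of the small subunit, rose by 0.44 in TZP and 0.52 in LAGIPRA against PairFedVehicle (adjusted p = 0.0102 and 0.00418). Without single libraries the count was 2 to 5 in TZP and 0 to 4 in LAGIPRA against Vehicle, with 2 in TZP without Vehicle 1, 3 or 6 or TZP 4. In LAGIPRA it was 0 without Vehicle 3 or LAGIPRA 4, 1 without Vehicle 1 and 2 without LAGIPRA 5 or 6.

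Factors that assemble the ribosome or modify its RNA numbered 25. Of these 18 rose in TZP (median 0.35), 15 in LAGIPRA (median 0.34) and 4 in PairFedVehicle (median 0.20), each against Vehicle, and 6 and 4 rose in TZP and LAGIPRA against PairFedVehicle (medians 0.17 and 0.16). None of the 25 fell. Of all tested genes 11.7%, 8.7%, 4.96%, 8.39% and 7.3% rose in the same order of comparisons, and 10.3%, 5.03%, 3.66%, 8.02% and 4.55% fell. Malsu1, which in human cells keeps unfinished subunits from joining, rose by 0.45 in TZP, 0.42 in LAGIPRA and 0.37 in PairFedVehicle against Vehicle (adjusted p = 0.000979, 0.00514 and 0.00466). Mpv17l2, an assembly factor, rose by 0.51 in TZP and 0.46 in LAGIPRA against PairFedVehicle (adjusted p = 0.000432 and 0.00094), without overlap. Mtg2, a GTPase of the large subunit, rose by 0.55 in TZP against Vehicle (adjusted p = 0.00136), and Mrm1, a ribosomal RNA methyltransferase, by 0.54 in LAGIPRA against Vehicle (adjusted p = 0.00382). The LAGIPRA count against Vehicle was 7 without Vehicle 1, 8 without Vehicle 3, 9 without Vehicle 2 or 6 and 6 without LAGIPRA 4 or 5, and the PairFedVehicle count was 2 without Vehicle 1 or 6 or PairFedVehicle 1 or 3.

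The list of 17 translation factors was a broad one that also took in Lrpprc, Slirp, Oxa1l, Letm1 and Pdf. Of the 17, 10 rose in TZP and 12 in LAGIPRA against Vehicle (medians 0.28 and 0.32), and 10 rose in each against PairFedVehicle (medians 0.25 and 0.28). In PairFedVehicle against Vehicle 0 were called (median -0.02), where 3 had an unadjusted p under 0.05. Of all tested genes 11.7% and 8.7% rose in TZP and LAGIPRA against Vehicle, and 8.39% and 7.3% against PairFedVehicle. In PairFedVehicle against Vehicle 8.61% were called, and 3977 of 17263 had an unadjusted p under 0.05. Tsfm, the exchange factor for the elongation factor Tufm, rose by 0.46 in TZP and 0.56 in LAGIPRA against PairFedVehicle (adjusted p = 0.00221 and 0.00035, no overlap), and Tufm itself by 0.40 and 0.44 (adjusted p = 0.00377 and 0.00189, no overlap). Oxa1l, which inserts new proteins into the inner membrane, rose by 0.28 in TZP and 0.31 in LAGIPRA against Vehicle (adjusted p = 0.00213 and 0.00514, no overlap). The TZP count against Vehicle was 6 without Vehicle 3 or TZP 4, and the PairFedVehicle count was 1 without Vehicle 5, LAGIPRA 4, TZP 4, PairFedVehicle 4 or PairFedVehicle 5.

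Of 20 genes for charging mitochondrial tRNAs, 13 rose in TZP and 14 in LAGIPRA against Vehicle (medians 0.32 and 0.34), 6 and 11 rose against PairFedVehicle (medians 0.26 and 0.31), and 0 were called in PairFedVehicle against Vehicle (median 0.01), where 3 had an unadjusted p under 0.05. Over all tested genes, 11.7% and 8.7% rose in TZP and LAGIPRA against Vehicle and 8.39% and 7.3% against PairFedVehicle. In PairFedVehicle against Vehicle 8.61% were called, and 3977 of 17263 had an unadjusted p under 0.05. Sars2, the seryl-tRNA synthetase, rose by 0.67 in TZP and 0.52 in LAGIPRA against PairFedVehicle (adjusted p = 7.71e-05 and 0.000844, no overlap). Cars2, the cysteinyl-tRNA synthetase, rose by 0.79 and 0.72 in the same comparisons (adjusted p = 0.000413 and 0.000981, no overlap). Rars2, for arginine, rose by 0.39 in each drug against Vehicle (adjusted p = 0.00183 in TZP and 0.00636 in LAGIPRA, no overlap). The TZP count against Vehicle was 8 without TZP 4, and that against PairFedVehicle was 10 without PairFedVehicle 1. The LAGIPRA count against Vehicle was 8 without Vehicle 1, Vehicle 6 or LAGIPRA 6, 7 without LAGIPRA 5 and 6 without Vehicle 3 or LAGIPRA 4.

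Of 15 genes for copying and transcribing mitochondrial DNA or processing its RNA, 10 rose in TZP, 8 in LAGIPRA and 3 in PairFedVehicle against Vehicle (medians 0.31, 0.31 and 0.14), where 11.7%, 8.7% and 4.96% of all tested genes rose. Against PairFedVehicle 3 rose and 1 fell in TZP (median 0.20), and 2 rose and 1 fell in LAGIPRA (median 0.17). There 8.39% of all tested genes rose and 8.02% fell in TZP, and 7.3% rose and 4.55% fell in LAGIPRA. Mterf2, a DNA-binding protein of mitochondria, rose by 0.79 in TZP (SE 0.115, adjusted p = 0.000431, no overlap) and 0.49 in LAGIPRA (adjusted p = 0.0118) against Vehicle. Tefm, the elongation factor of mitochondrial transcription, rose by 0.44 in TZP against Vehicle (adjusted p = 0.00163, no overlap). Hsd17b10, a dehydrogenase that is also a subunit of mitochondrial RNase P, rose most under pair feeding, by 0.71 in PairFedVehicle against Vehicle (adjusted p = 0.000125, no overlap). Against Vehicle it also rose by 0.31 in TZP (adjusted p = 0.0346, no overlap), a call lost without Vehicle 1, 2, 3 or 6 or TZP 3, 4 or 6, and had 0.28 in LAGIPRA (adjusted p = 0.0738). It fell by 0.40 in TZP and 0.44 in LAGIPRA against PairFedVehicle (adjusted p = 0.0115 and 0.00806). Single left-out libraries moved the counts against Vehicle to between 5 and 11 in TZP, with 5 without Vehicle 1 or 3 and 6 without Vehicle 2 or TZP 4. In LAGIPRA they ran from 4 to 10, with 5 without Vehicle 1, 2 or 3 or LAGIPRA 4 or 6 and 4 without LAGIPRA 5. In PairFedVehicle the count was 1 without Vehicle 6 or PairFedVehicle 3. Against PairFedVehicle, without PairFedVehicle 1, 5 rose in TZP and 4 in LAGIPRA, and 1 rose in LAGIPRA without LAGIPRA 3, 4, 5 or 6 or PairFedVehicle 2, 3, 4 or 5. The RNAs encoded by mitochondrial DNA, including both ribosomal RNAs, were not analysed here.

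The counts of these 5 lists against Vehicle depended on the setting, as those of the mitoribosomal list did. In the fits without single libraries, the share of all tested genes that rose against Vehicle was 7.57% to 13.9% in TZP, 3.93% to 12.3% in LAGIPRA and 3.03% to 5.59% in PairFedVehicle. Against PairFedVehicle it was 6% to 9.56% in TZP and 5.31% to 8.7% in LAGIPRA. With the length slope in the fit, the genes higher in TZP against Vehicle were 0 of 5 further ribosomal proteins, 0 of 25 assembly factors, 2 of 17 translation factors, 1 of 20 tRNA-charging genes and 2 of 15 genes for mitochondrial DNA and its RNA, while 3, 12, 14, 10 and 10 had an unadjusted limma p under 0.05 and the medians were 0.24 to 0.36. In that fit 0.765% of all tested genes rose at the adjusted threshold, and their share at an unadjusted p under 0.05 was not counted. Without TZP 3 to 6 the counts of the lists in the same order were 1, 1, 8, 4 and 4, where 3.15% of all tested genes rose. In LAGIPRA against Vehicle limma called 0, 1, 0, 0 and 0 with the 1-read level as a covariate (2, 12, 9, 7 and 5 at an unadjusted p under 0.05) and 0, 0, 1, 0 and 0 with the macrophage mean (1, 11, 10, 8 and 5). These fits called 0.261% and 0.0985% of all tested genes, whose share at an unadjusted p under 0.05 was not counted here either. In the fits as reported, 6168 of the 17263 tested genes in TZP and 5436 in LAGIPRA against Vehicle had an unadjusted limma p under 0.05. Of the calls against Vehicle, 0 of 4, 0 of 18, 1 of 10, 0 of 13 and 1 of 10 in TZP held under every other setting fitted (13 for nearly all genes, not counting single left-out libraries), and none in LAGIPRA did. Against PairFedVehicle 0 of 3, 2 of 6, 4 of 10, 4 of 6 and 1 of 4 calls in TZP held, and 1 of 3, 3 of 4, 6 of 10, 6 of 11 and 1 of 3 in LAGIPRA.

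Of 14 regulators of nuclear genes for mitochondria, Esrra, the estrogen-related receptor alpha, was the only one higher in the fits to all libraries, 7.14% of the list. That share was no higher than among all tested genes, of which 11.7% and 8.7% rose in TZP and LAGIPRA against Vehicle and 8.39% and 7.3% against PairFedVehicle. The count in TZP against Vehicle was 2 without Vehicle 4, TZP 3 or PairFedVehicle 1. Esrra rose by 0.39 in TZP (SE 0.087, adjusted p = 0.0042) and 0.39 in LAGIPRA (adjusted p = 0.01) against Vehicle and by 0.31 in each against PairFedVehicle (adjusted p = 0.018 in TZP and 0.0211 in LAGIPRA). The LAGIPRA call against PairFedVehicle was lost without LAGIPRA 6, PairFedVehicle 4 or PairFedVehicle 5, and the TZP value against Vehicle without TZP 3 to 6 was 0.45 (adjusted p = 0.0528). No call of Esrra held under every other setting fitted. Of the calls among all 14, 0 of 5 in TZP and 0 of 2 in LAGIPRA against Vehicle held, and 0 of 3 and 0 of 1 against PairFedVehicle. In PairFedVehicle against Vehicle 1 of 1 held. Nfe2l1, Sp1, Gabpa and Myc were lower in TZP against Vehicle, by log2 fold changes of -0.44, -0.58, -0.44 and -0.54, where 10.3% of all tested genes fell. Without TZP 3 to 6 none of the 14 was called lower, in a fit where 1.58% of all tested genes were. In TZP 1 and 2 Myc stood at log2 values of 5.68 and 5.84, below its Vehicle mean of 6.51, and Sp1 at 5.09 and 5.23 (Vehicle mean 5.38). Nfe2l1 stood at 8.71 and 8.52 (Vehicle mean 8.75) and Gabpa at 7.33 and 7.16 (Vehicle mean 7.21). The call of Gabpa was also lost without TZP 5 or TZP 6 alone, and that of Myc without Vehicle 3 or 6 or TZP 1, 4 or 5. Gabpa, the DNA-binding subunit of the complex that reads the ETS core, had 0.03 in TZP against Vehicle without TZP 3 to 6 (adjusted p = 0.867). Myc fell by 0.88 in LAGIPRA (adjusted p = 0.00514) and by 0.64 in PairFedVehicle (adjusted p = 0.0179) against Vehicle, the PairFedVehicle call being lost without Vehicle 6. Against PairFedVehicle Myc had 0.10 in TZP and -0.24 in LAGIPRA (adjusted p = 0.742 and 0.384). In TZP against PairFedVehicle, where 8.02% of all tested genes fell, 2 of the 14 were lower. These were Gabpa by a log2 fold change of -0.50 (adjusted p = 0.0113) and Yy1 by -0.25 (adjusted p = 0.0212). Neither call held without TZP 3 to 6, in a fit where 1.91% of all tested genes fell. That of Yy1 was also lost without TZP 6 or PairFedVehicle 4 alone. Neither Nrf1, which reads the NRF1 core, nor Yy1 was called against Vehicle in any group.

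Ribosomal proteins of the cytosol, a list of 83 tested genes, did not share these changes. In TZP against Vehicle 1 rose and 0 fell (median -0.03), where 11.7% of all tested genes rose and 10.3% fell. In LAGIPRA against Vehicle 0 rose and 5 fell (median -0.15), where 8.7% of all tested genes rose and 5.03% fell. In PairFedVehicle against Vehicle 0 were called (median 0.02), where 8.61% of all tested genes were. Of the cytosolic genes 5 had an unadjusted p under 0.05 there, as did 3977 of the 17263 tested genes. Against PairFedVehicle 1 rose and 0 fell in TZP (median -0.03), where 8.39% and 8.02% of all tested genes did. In LAGIPRA 1 rose and 11 fell against PairFedVehicle (median -0.15), where 7.3% and 4.55% did. The difference between the 2 kinds of ribosome was described and not tested. With transcript length corrected 28 cytosolic genes fell in TZP against Vehicle (median -0.21), in a fit where 10.6% of all tested genes fell.

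The chart of counts under other settings gathers the values for the mitoribosomal list. The median stayed between 0.13 and 0.31 in the 4 comparisons of a drug with a group without drug under the settings drawn there, while the number of genes called ranged widely.

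**Figure D5:**
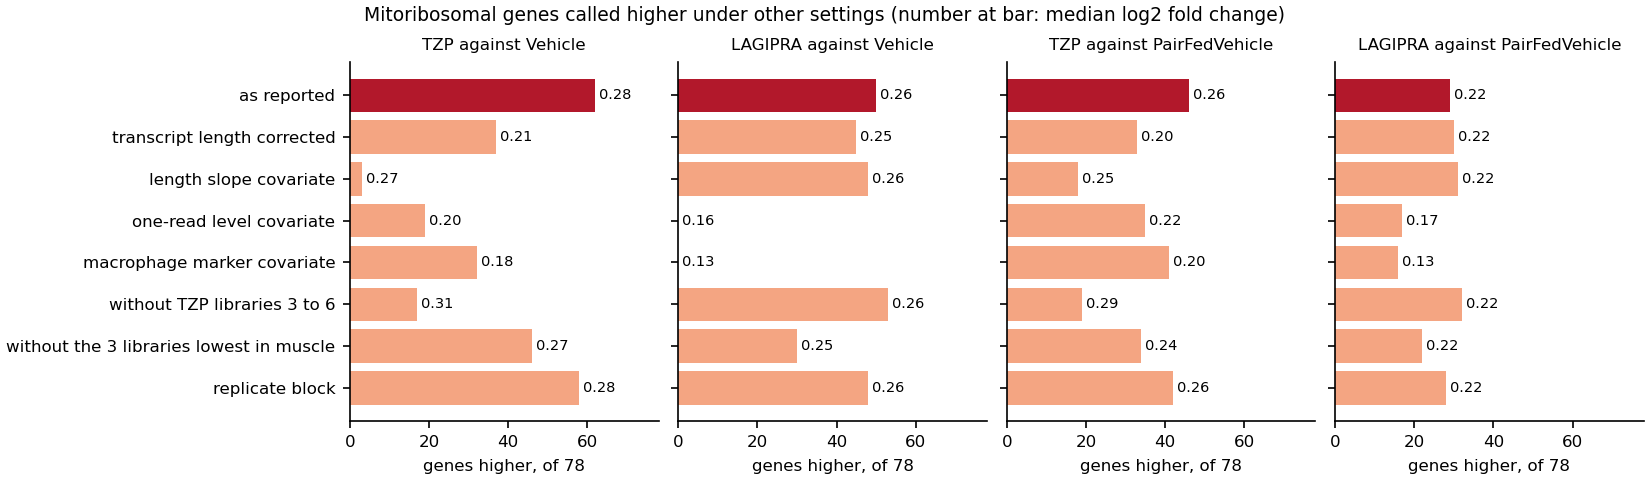
Bars give the number of mitoribosomal genes, of 78, that limma called higher as reported and under other settings, in 4 panels (TZP and LAGIPRA against Vehicle, then against PairFedVehicle), with the median log2 fold change beside each bar. Bars shorten most with the length slope in the fit or without TZP libraries 3 to 6 in the TZP panels and with the 1-read level or macrophage covariate in LAGIPRA against Vehicle, while the medians stay at or above 0.13. The share of all tested genes called was also lower in those fits than as reported.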

How the data were processed

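Per the labels' protocols, RNA extraction used TRIzol followed by a lipid-tissue RNeasy kit, and polyA RNA was selected. The submitters' processing notes name cutadapt 1.9.1 and GSNAP. The genome build, annotation, counting and strandedness are not given in the sources used here, and read totals are unknown, so precision comes from the spread between libraries. The authors' deposited values for 23017 genes were taken to be log2, inferred from their range (-0.50 to 22.3) and near-equal quantiles (75% quantile 6.21 in each library). That scale holds less surely for low values.

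The 25% of genes with the lowest mean (5754) were left out, and 17263 were tested in limma 3.58.1 (R 4.3.3), with 1 mean per group over 24 libraries, a mean-variance trend, two-sided tests and Benjamini-Hochberg adjustment at 0.05. The labels do not say that libraries are separate animals, so p-values measure the spread between these libraries. Same-numbered libraries of different groups did not deviate together (r from -0.60 to 0.38 over 36 pairs), so the numbers were not taken as pairs. The code was tested on simulated data.

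The members and lists were chosen with earlier results of these data known. Named members were the called genes with the smallest p (up to 6 a direction and comparison), the extremes of fold change and level, and a fixed set by role. List genes named had small p in a comparison, and Slc5a3 was named after its values were seen. Lengths and exon overlaps come from GENCODE M21 (lengths for 15407 tested genes, 89.2%) and promoters from RefSeq GRCm38.p6. Mrp63 and Prorp were not analysed here. Figures used matplotlib 3.10.9 in Python 3.11.15.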

Additional observations from a re-analysis of the deposited data

Results flagged for a closer look

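Within groups of 6 libraries, 8 values stood further from the rest than Dixon's critical value for a group of 6 allows, among 148 groups checked over the named genes and the list mean, and chance alone gives about 5% of groups such a value. High values were those of Mrpl11 in TZP 4 (log2 value 7.61), Mrps26 in LAGIPRA 6 (8.24), Mrps11 in PairFedVehicle 1 (7.16), Mrpl40 in PairFedVehicle 1 (6.94), Mrps18c in PairFedVehicle 4 (7.29) and Mrpl55 in Vehicle 5 (7.08). Low values were those of Mrps23 in TZP 2 (5.33) and Mrpl58 in LAGIPRA 2 (6.77). PairFedVehicle 1 held 2 of the high values and also had the highest mean over the list in its group (7.99).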

How the results depend on the processing

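The number of genes called, in the order TZP, LAGIPRA and PairFedVehicle against Vehicle, then TZP and LAGIPRA against PairFedVehicle, was 62, 50, 1, 46 and 29, and in TZP against LAGIPRA it was 0 under every setting. The share of all tested genes called in the fits as reported was 22%, 13.7%, 8.61%, 16.4% and 11.9% in the same order, and 0.4% in TZP against LAGIPRA. Filters, the mean-variance trend, median centring, an offset and fits to only 2 groups left the counts within 1.5 times, except that a stricter filter on low values called 3 in PairFedVehicle against Vehicle, where it called 11.6% of all genes tested. In TZP against Vehicle 38 were called with transcript length corrected, 3 with the length slope in the fit, 20 with the 1-read level, 33 with the macrophage mean (chosen after seeing the data) and 17 without TZP 3 to 6. Of all tested genes 21.8%, 1.09%, 14.4%, 15.7% and 4.73% were called in these fits, in that order. In LAGIPRA against Vehicle 0 were called with the 1-read level or the macrophage mean and 30 without the 3 libraries lowest in muscle, where 0.261%, 0.0985% and 7.14% of all tested genes were. In PairFedVehicle against Vehicle the counts were 3 with length corrected, 2 with the length slope, 3 with the 1-read level, 6 with the macrophage mean and 2 without TZP 3 to 6 or without the 3 libraries lowest in muscle. The shares of all tested genes were 8.94%, 9.53%, 9.18%, 12.1%, 10.9% and 6.63%. In TZP against PairFedVehicle the counts were 18 with the length slope and 19 without TZP 3 to 6, where 5.5% and 5.97% of all tested genes were called. In LAGIPRA against PairFedVehicle they were 17 with the 1-read level and 16 with the macrophage mean, where 7.35% and 7.52% were. The causes were not tested. Without single libraries the counts ranged from 45 to 65 in TZP, 27 to 56 in LAGIPRA and 1 to 5 in PairFedVehicle against Vehicle, 35 to 49 in TZP and 23 to 47 in LAGIPRA against PairFedVehicle, and stayed at 0 in TZP against LAGIPRA. The shares of all tested genes called were 15.9% to 26%, 5.47% to 22.1%, 6.08% to 9.38%, 11.7% to 18.4%, 8.13% to 14.3% and 0% to 6.3%. With the replicate number as a block the counts were 58, 48, 3, 42 and 28, in the same order as above, and 0 in TZP against LAGIPRA. There the shares were 20.6%, 11.1%, 7.52%, 15.2%, 10.1% and 0.133%. Of 93 calls of named genes, 69 held without each library in turn and 18 under every setting, among them Mrps27 in TZP against Vehicle and Mrps22, Mrps27, Mrpl12, Mrpl50 and Mrps15 in both drugs against PairFedVehicle. Mrpl20 in TZP against Vehicle changed sign with length corrected (-0.0381, adjusted p = 0.792). Read depth is unknown, so what a low gene could show is not known either.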
